A study of Mus musculus with 24 samples.

Results

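Pax1, Pax9, Alx1, Alx4, Irx3, Irx5 and Asb4 were examined as genes of the anterior limb bud, and the question was whether they keep or gain the active histone marks H3K27ac and H3K4me2 when Sonic hedgehog (Shh) is absent. The genes were given as a list of 7 names among 21938 protein-coding genes. Their members are every peak of the 7 deposited peak lists that overlapped a gene body or the 50 kb on either side of it on mm10, 349 of 368246 peaks in all. WT control and Shh-/- mouse forelimb buds at E10.5 (Swiss Webster embryos of 32 to 35 somites) were profiled by ChIP-seq for H3K27ac and H3K4me2, and Shh-/- buds also for H3K27me3. The Shh-/- embryos carry a null allele of Shh throughout, and the study's methods describe the controls as wild-type and heterozygous littermates together. Each limb ChIP used chromatin of about 400000 cells from pooled buds, so a replicate is a pool and not 1 embryo. NIH3T3 cells, an established mouse fibroblast line, were profiled for H3K27ac after 48 h with 400 nM purmorphamine, a Smoothened agonist that switches the Hedgehog pathway on, or with DMSO as the control, and the labels list LIF in both arms. Each condition had 2 replicates and 1 peak list made from both, so no value here has a replicate error, no test between conditions is made, and intervals cover counting error only.

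Shh is secreted by posterior mesenchyme of the limb bud. Where it is received, GLI transcription factors act as activators, and where it is not, GLI3 is processed to a repressor, which dominates in the anterior bud and in buds without Shh. H3K27ac marks active promoters and enhancers, H3K4me2 marks promoters and enhancers that are active or poised, and H3K27me3 is laid down by Polycomb at silenced developmental genes. Pax1 and Pax9 are paired-box transcription factors of the sclerotome and of the anterior proximal limb and shoulder girdle. Alx1 and Alx4 are paired-like homeodomain factors, and loss of Alx4 gives extra anterior digits with ectopic Shh. Irx3 and Irx5 are neighbouring Iroquois homeodomain factors needed for anterior limb elements, and Asb4 encodes an ankyrin-repeat and SOCS-box protein that recruits substrates to a ubiquitin ligase.

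The gene bodies lie on chromosome 2 (Pax1, chr2:147361925-147393295, plus strand, and Alx4, chr2:93642384-93681339, plus strand), chromosome 12 (Pax9, chr12:56691767-56712822, plus strand), chromosome 10 (Alx1, chr10:102998707-103030215, minus strand), chromosome 8 (Irx3, chr8:91798525-91802067, minus strand, and Irx5, chr8:92357625-92376286, plus strand) and chromosome 6 (Asb4, chr6:5383386-5433022, plus strand). Other protein-coding genes reached into 3 windows, namely Slc25a21 beside Pax9, Lrriq1 beside Alx1 and Ext2 beside Alx4. Non-coding genes shared the windows of Pax1 (Nkx2-2os, Gm14110, AI646519, Gm14109), Pax9 (Gm18339, Gm15524), Alx1 (Gm17028), Irx3 (Gm36380, Irx3os) and Irx5 (Crnde, Gm21817). A peak in a shared window was not assigned to one gene or the other.

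The sequences printed first are from distal H3K27ac elements at Pax1, Pax9 and Alx4. Each line gives 200 bases of the plus strand around the 50-bp bin with the highest ratio of ChIP to input in the best-ranked Shh-/- H3K27ac peak outside the promoter, with that bin in capitals. The Pax1 element (chr2:147429125-147429324) lies 64.0 kb downstream of the start, the Pax9 element (chr12:56669475-56669674) 21.9 kb upstream and the Alx4 element (chr2:93615525-93615724) 24.3 kb upstream, measured to the nearer edge of the peak.
Pax1 element: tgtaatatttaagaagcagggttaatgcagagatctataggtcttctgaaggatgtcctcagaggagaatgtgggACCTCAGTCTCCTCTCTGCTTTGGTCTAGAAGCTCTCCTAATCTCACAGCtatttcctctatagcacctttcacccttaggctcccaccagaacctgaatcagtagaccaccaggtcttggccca
Pax9 element: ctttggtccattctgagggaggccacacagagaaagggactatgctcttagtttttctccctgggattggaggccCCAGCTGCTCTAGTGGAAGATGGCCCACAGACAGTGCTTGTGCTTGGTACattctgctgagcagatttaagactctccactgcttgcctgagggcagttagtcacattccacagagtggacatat
Alx4 element: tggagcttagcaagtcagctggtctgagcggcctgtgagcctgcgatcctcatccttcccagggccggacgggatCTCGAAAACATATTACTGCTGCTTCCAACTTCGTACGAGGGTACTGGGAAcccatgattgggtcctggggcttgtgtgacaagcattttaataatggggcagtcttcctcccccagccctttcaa
All sequences are from the mouse genome assembly GRCm38 (mm10) in RefSeq. None of the 3 stretches held the GLI core motif GACCACCCA on either strand.

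The GLI motif was searched as the exact letters GACCACCCA on both strands because GLI factors carry the response to Shh. It occurred in 0 of 45 WT and 0 of 61 Shh-/- H3K27ac peaks at the 7 loci, against 0.401% and 0.266% of all peaks in those lists. Likewise 0 of 52 WT and 0 of 61 Shh-/- H3K4me2 peaks and 0 of 55 H3K27me3 peaks held it, against 0.620%, 0.502% and 0.528% of all peaks. At these background shares fewer than 1 such peak would fall among the member peaks of each list. In NIH3T3 cells 1 of 50 control peaks and 1 of 25 purmorphamine peaks at the loci held the motif, against 0.592% and 0.725% of all peaks, and both cover the same site at Asb4. The 7 windows held 5 sites, all read from the minus strand and shown here with 10 bases on either side and the motif in capitals.
Asb4 site (chr6:5445819-5445847): ttcactgtgtGACCACCCAgcataagaag
Irx5 site (chr8:92350294-92350322): gggatgggttGACCACCCAgggtggctga
Irx5 far site (chr8:92310044-92310072): atgttgtggtGACCACCCAccataaaatt
Pax1 site (chr2:147380978-147381006): aagccaacagGACCACCCAtaatcagcct
Alx1 site (chr10:102959717-102959745): cagctgcccaGACCACCCAatgctcccaa
The Asb4 site, 55.4 kb downstream of the nearest start, was the only one of the 5 inside a peak of any list. RefSeq promoter sequences (250 bases before to 50 after a start) were matched for 4 of the 7 genes, Pax1, Pax9, Irx3 and Asb4, and none of their 5 promoters held the motif, which 0.253% of 32851 promoters held. A match describes letters only, and its absence says nothing of GLI binding elsewhere or through other letters.

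The limb lists carried the marks of forelimb mesenchyme. Promoters of all 5 forelimb mesenchyme markers (Tbx5, Prrx1, Prrx2, Lmx1b, Twist1) had H3K27ac in both genotypes, and none of 3 hindlimb, 5 ectoderm or 4 neural marker promoters did in either. Over all protein-coding genes 43.3% had it in WT and 40.4% in Shh-/- limb. Of the 5, Prrx1, Prrx2 and Twist1 also had it in both NIH3T3 lists. Muscle precursor markers had H3K27ac at 0 of 4 promoters in WT and 1 of 4 in Shh-/- (Pax3), and endothelial markers at 1 of 4 in each (Cdh5 in WT, Pecam1 in Shh-/-). The fibroblast markers had it at all 4 promoters in both NIH3T3 lists, and at 1 of 4 (Col1a2) in each limb list. Somite and sclerotome markers had it at 3 of 5 promoters in WT (Meox1, Meox2, Tbx18) and at 1 of 5 in Shh-/- (Tbx18), with no H3K27ac at Uncx or Nkx3-2 in either. Since Pax1 and Pax9 are sclerotome genes too, these counts belong beside their values. Fewer of the somite marker promoters were acetylated in Shh-/- limb, where the Pax1 and Pax9 loci had more H3K27ac, and the part of somite cells in these values was not tested. The lists held 49679 WT and 43916 Shh-/- H3K27ac peaks, 36585 WT and 38468 Shh-/- H3K4me2 peaks, 20830 H3K27me3 peaks, and 90989 control and 87779 purmorphamine NIH3T3 peaks, with median widths from 150 to 450 bp.

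**Figure D1:**
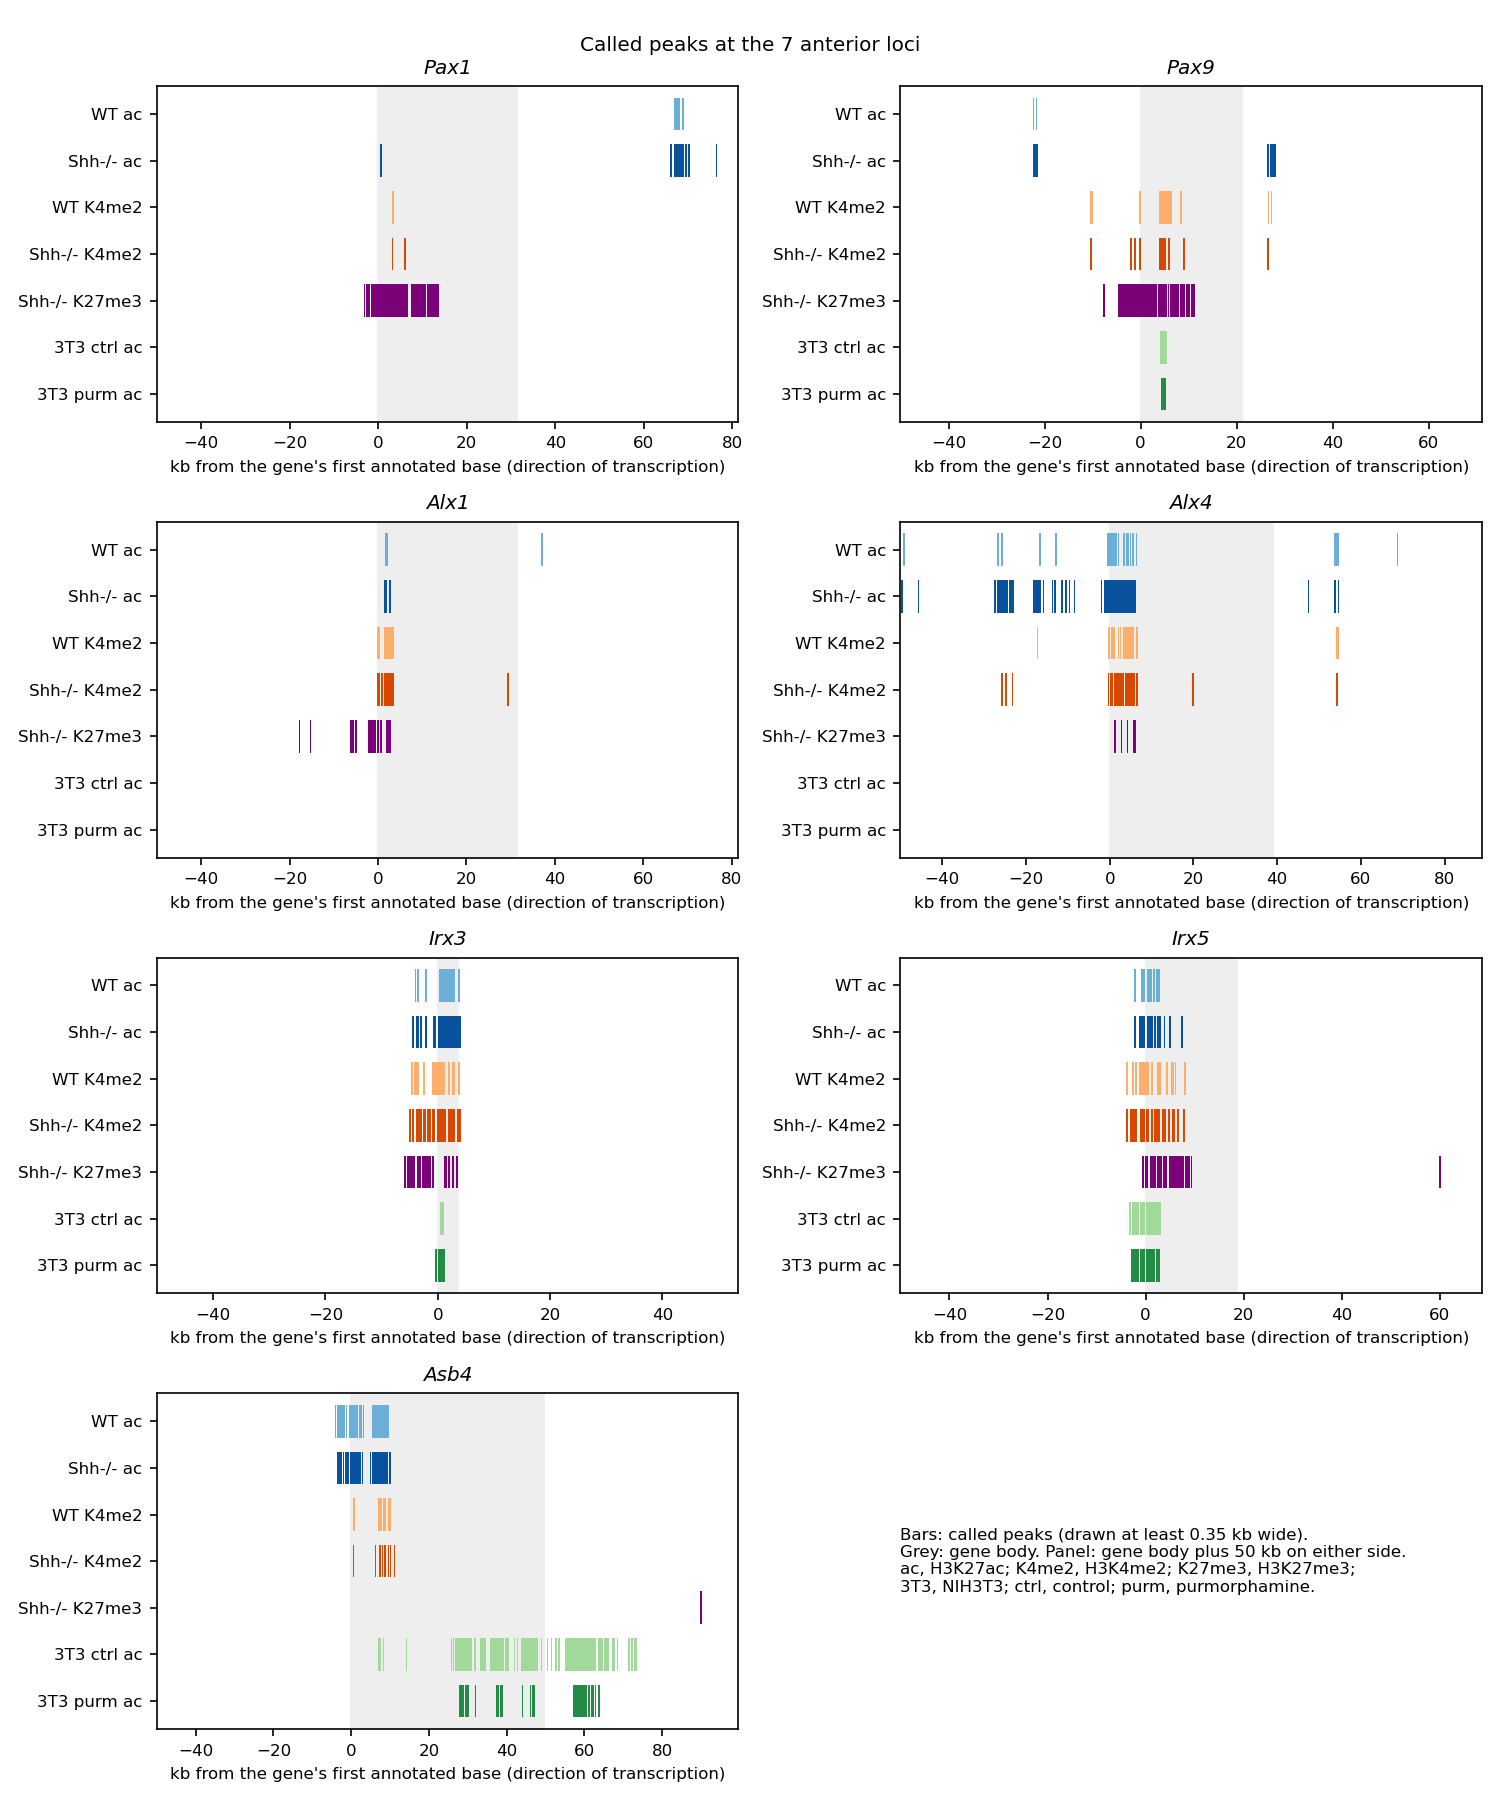
Peaks of all 7 lists along the 7 gene windows, 1 row per list, with distance in kb from each gene's first annotated base in the direction of transcription on the horizontal axis, the gene body in grey and narrow peaks widened to a minimum drawn width. Pax1 acetylation in limb lies mostly far downstream of the gene, Alx4 acetylation has more upstream peaks in Shh-/- limb, H3K27me3 is broad at Pax1 and Pax9 with 1 peak at Asb4, and Asb4 acetylation in NIH3T3 cells lies mostly behind that of limb.

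All 7 loci kept H3K27ac without Shh, and at 6 of the 7 its length was at least 1.5 times higher. Length here is the number of base pairs under H3K27ac peaks in a gene's window. It rose from WT to Shh-/- limb from 1500 to 3150 bp at Pax1, from 550 to 2200 bp at Pax9, and from 500 to 850 bp at Alx1. The same held at Alx4, from 7250 to 15800 bp, at Irx3, from 3750 to 5750 bp, and at Irx5, from 2550 to 4500 bp. These 6 loci were each at least 1.5 times higher, a size reached by 4.73% of 15590 protein-coding genes with H3K27ac in both lists, while 27.4% of them were at least 1.5 times lower. Asb4 was the exception, with 10400 bp in WT and 10650 bp in Shh-/- limb, a ratio of 1.02. The Pax9, Pax1 and Alx1 values rest on few peaks (2 and 5, 2 and 7, and 3 and 2 in WT and Shh-/-). The gain at Pax9 is 4-fold of a small base and lies mostly in peaks within the neighbouring gene Slc25a21.

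Together the loci had 26500 bp of H3K27ac in WT and 42900 bp in Shh-/- limb, a ratio of 1.62, whereas the whole lists went the other way, with a ratio of 0.847 and a median over genes of 0.82. Without Alx4, the largest contributor, the ratio was 1.41, and without Asb4 it was 2. The comparison of lengths and the factor of 1.5 were chosen after values had been seen. In whole buds, a larger share of anterior cells and more acetylation per cell cannot be told apart.

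**Figure D2:**
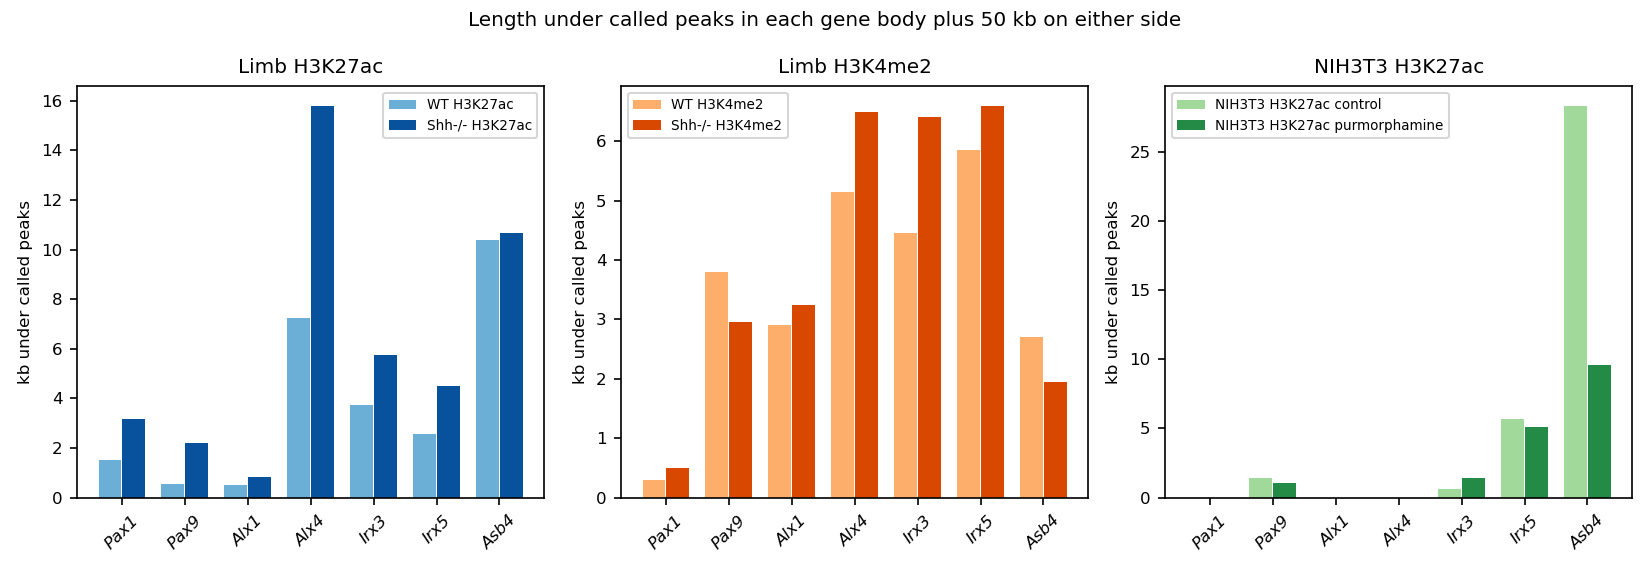
Length under called peaks in kb in each gene's window, in 3 panels for limb H3K27ac, limb H3K4me2 and NIH3T3 H3K27ac, with the 2 conditions of each as paired bars, 1 value per list and no replicate error. H3K27ac is longer in Shh-/- limb at all 7 loci, with Asb4 nearly level, H3K4me2 is longer at 5 loci and shorter at Pax9 and Asb4, and the NIH3T3 panel is led by Asb4.

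Peak by peak, WT acetylation at these genes was mostly still present without Shh. Of 45 WT H3K27ac peaks, 7 had no overlap with a Shh-/- peak, which is 15.6% (95% Wilson interval 7.75 to 28.8%), against 48.5% of all WT peaks. Of these 7, 5 lay within 500 bp of a Shh-/- peak, and those beyond were at Alx1 (chr10:102993050-102993249, 200 bp, 35.5 kb downstream of the nearest start) and in an intron of Ext2 beside Alx4 (chr2:93710950-93711099, 150 bp). Conversely, 34 of 61 Shh-/- H3K27ac peaks overlapped no WT peak, 55.7% (43.3 to 67.5%) against 38.4% of all Shh-/- peaks. Of the 34, 13 ranked in the better 50% of their list and 13 lay within 500 bp of a WT peak. Such counts by rank or gap were not made over all unshared peaks, so they are not read as a trait of the loci. With gaps of up to 500 bp counted as shared, 4.44% of WT peaks were WT-only (29.5% of all). By that rule 34.4% of Shh-/- peaks were Shh-/- only (20.2% of all). Alx4 held 17 of the 34, Pax1 5, Pax9, Irx3 and Irx5 3 each, Asb4 2 and Alx1 1. Peaks of 1 locus are often pieces of 1 domain, and when peaks within 1 kb were joined the Shh-/- only share was 33.3% against 31.5% of all, which is near the background. The shares over all peaks come from lists called separately, and do not measure how much acetylation was lost. The study, with peaks merged between genotypes, reported most H3K27ac regions as present in both.

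**Figure D3:**
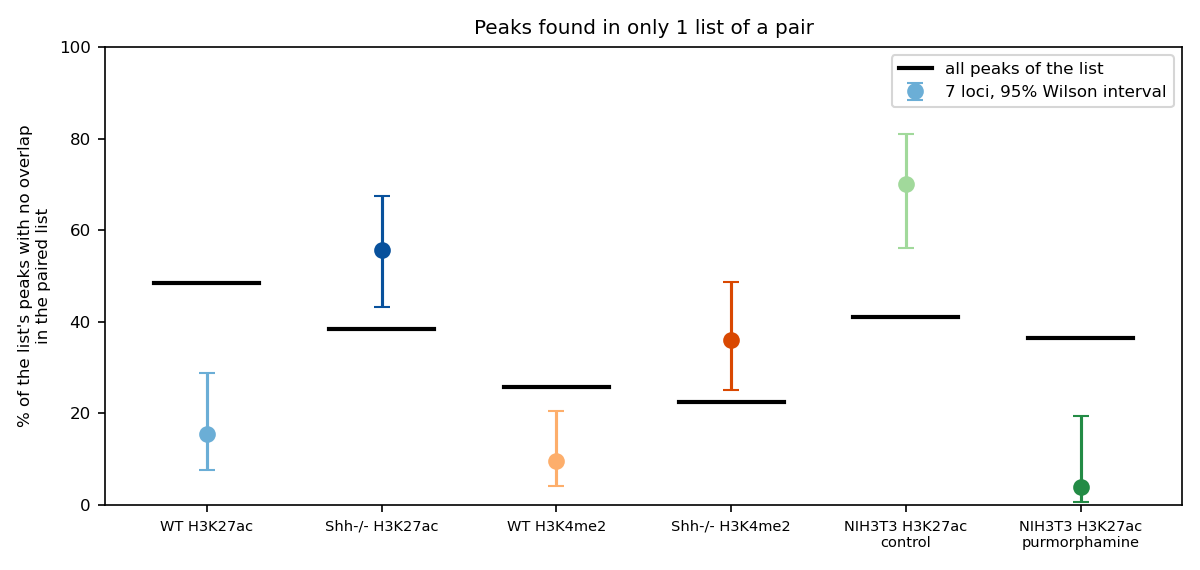
Percent of peaks at the 7 loci that overlap no peak of the matching list, with 95% Wilson intervals for counting error, beside the same percent over all peaks of each list. The WT-only share at the loci lies below the share of all peaks for both limb marks, the Shh-/- only share lies above it, and in NIH3T3 cells the control-only share of 70.0% stands above 41.1%, which without Asb4 it does not, at 22.2%.

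Where a WT and a Shh-/- peak overlapped, enrichment was compared as a shift. A shift is the largest log2 ratio of ChIP to input in the Shh-/- peak minus that in the WT peak it overlaps most, less the median of that difference over all pairs of the mark, which was -0.34 for H3K27ac and -0.07 for H3K4me2. At the 7 loci the 27 H3K27ac pairs had a median shift of 0.60 on the log2 scale, with 15 raised by more than 0.5 and 3 lowered by more than 0.5, while over all 27070 pairs 25.2% were raised and 27.4% lowered. The members' shares were 55.6% raised and 11.1% lowered. Among the 16 pairs that overlapped by at least 50% of the peak, the median shift was 0.13, with 6 raised and 3 lowered. Median shifts were 1.38 at Alx1 (1 pair), 0.83 at Pax9, 0.82 at Irx3, 0.78 at Alx4 and 0.76 at Pax1, and lower at Irx5 with 0.31 and Asb4 with 0.16. All 3 lowered pairs were at Asb4 (2) and in Ext2 beside Alx4 (1). The middle 90% of all pairs ran from -1.57 to 1.21, so most shifts at the loci are well within the range seen across the genome.

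**Figure D4:**
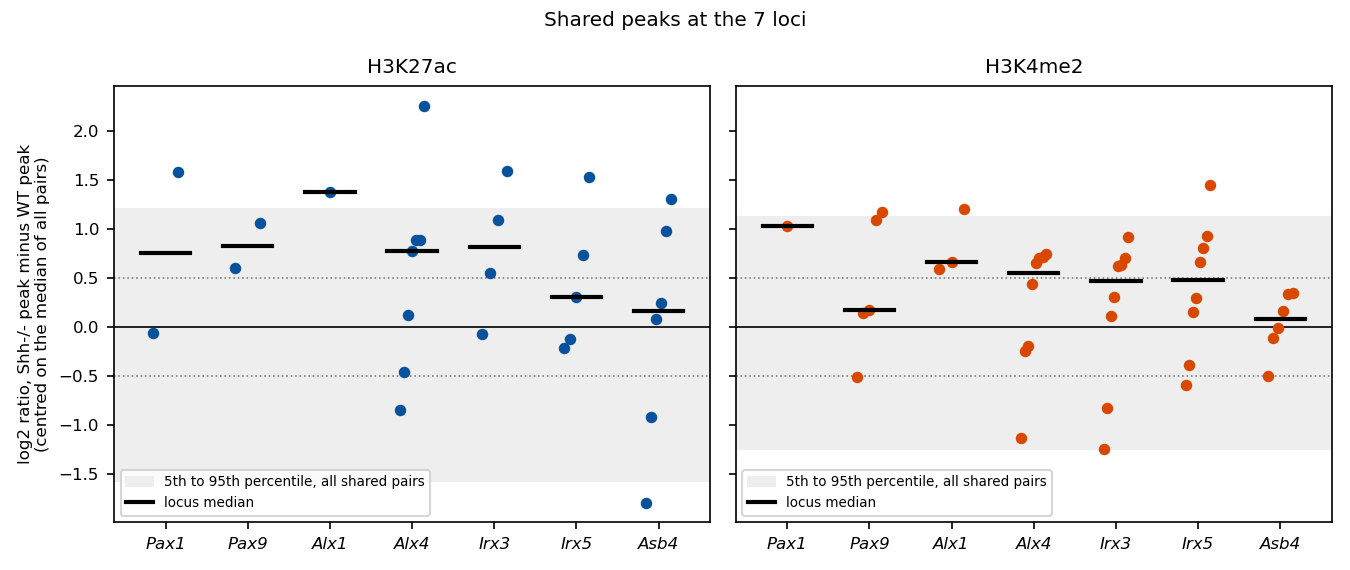
Shift in the log2 ratio of ChIP to input, Shh-/- minus WT and centred on all pairs, for each overlapping pair of peaks at the 7 loci, H3K27ac left and H3K4me2 right. Each point is 1 pair, black bars are locus medians, grey is the 5th to 95th percentile of all pairs and dotted lines stand at 0.5 to either side of 0. Of the 27 H3K27ac points, 15 lie above 0.5, and the 3 that were lowered are at Asb4 and in Ext2 beside Alx4.

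Alx4 had the most H3K27ac gained. In WT limb the promoter and first intron carried a best peak of 2350 bp (chr2:93641800-93644149, rank 2270, log2 ratio 5.31) followed by shorter ones. In Shh-/- limb 1 peak of 6650 bp covered the start and the intron behind it (chr2:93641500-93648149, rank 549, log2 ratio 5.85), where rank 1 is the strongest peak of a list. The Shh-/- peak spans 6 separate WT peaks, and its shift was 0.89. Upstream of the gene, WT limb had 6 H3K27ac peaks of 1700 bp together, and Shh-/- limb had 19 of 8150 bp, of which 16 overlapped no WT peak. The best of those 16, of 900 bp, lay 17.2 kb upstream (chr2:93624300-93625199, rank 8577, log2 ratio 3.86, in the better 50% of the list), 350 bp from a WT peak.

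The element printed above for Alx4 lies in an upstream region that was also much stronger without Shh. The Shh-/- peak of 2650 bp there (chr2:93615400-93618049) ranked 1685 with a log2 ratio of 5.22, and the WT peaks inside it were chr2:93615450-93615999 (rank 19845, log2 ratio 3.30), chr2:93616350-93616449 (rank 48226, log2 ratio 2.46) and chr2:93616500-93616899 (rank 6662, log2 ratio 4.37). Its shift of 2.26, the highest of all pairs at the loci, is taken against the first of these and would be smaller against the last. The best WT-only peak, chr2:93593000-93593199 (rank 8478, log2 ratio 4.13, better 50%), lay 49.2 kb upstream and 100 bp from a Shh-/- peak of log2 ratio 3.62. Inside Ext2, a glycosyltransferase of heparan sulphate synthesis, the acetylation went the other way, with log2 ratios of 3.71 in WT and 2.53 in Shh-/- at chr2:93696050 (shift -0.84).

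At Pax1 the acetylation was distal. No H3K27ac peak lay within 1 kb of the start in either genotype, and WT limb had 2 peaks, both downstream of the gene, while Shh-/- limb had 6 downstream peaks and 1 small peak 2.5 kb before the start. The downstream peak that holds the printed element measured 2050 bp in Shh-/- limb (chr2:147429000-147431049, rank 5535, log2 ratio 4.26). In WT the same place had chr2:147428800-147430049 (rank 27228, log2 ratio 3.02) and chr2:147430650-147430899 (rank 23415, log2 ratio 3.15), and the shift was 1.58. The best Shh-/- only peak followed it (chr2:147431200-147431649, rank 22220, log2 ratio 3.00) and ranked just outside the better 50% of the list. All these downstream peaks are intergenic.

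Pax9 showed the same layout on the other side of the gene. The printed Pax9 element had a Shh-/- peak of 600 bp (chr12:56669300-56669899, rank 8267, log2 ratio 3.89) and a WT peak of 350 bp (chr12:56669300-56669649, rank 22872, log2 ratio 3.17), a shift of 1.06. The neighbouring pair stood at log2 ratios of 3.05 and 2.79, a shift of 0.60. A cluster of 3 Shh-/- only peaks lay downstream of Pax9 within Slc25a21, a mitochondrial carrier gene, the best of them 900 bp long in an intron 23.3 kb from the start (chr12:56718950-56719849, rank 17220, log2 ratio 3.22, better 50%). The nearest WT H3K27ac peak to it was 48850 bp away, and WT limb had H3K4me2 peaks in the same intron region. Neither genotype had an H3K27ac peak at the Pax9 promoter. Most of the H3K27ac length gained in the Pax9 window lies in the 3 peaks within Slc25a21, of 900, 200 and 150 bp, and not in the printed element.

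Alx1 gained H3K27ac at its start. The Shh-/- peak of 700 bp (chr10:103028100-103028799, rank 8902, log2 ratio 3.83) covered a transcription start and the first exon, where WT limb had peaks of 200 bp (rank 35698, log2 ratio 2.78) and 100 bp (rank 47487, log2 ratio 2.49). Both WT peaks are among the weaker 50% of their list, and the shift of the pair was 1.38. The single Shh-/- only peak, chr10:103027500-103027649, ranked 23565, in the weaker 50%.

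Irx3 and Irx5 were acetylated across their bodies in both genotypes, and more widely in Shh-/- limb. At Irx3 the best peak grew little, from 2600 bp at a log2 ratio of 4.48 (chr8:91798900-91801499, rank 5945) to 3000 bp at 4.69 (chr8:91798950-91801949, rank 3383), a shift of 0.55. At the 3′ end of the gene the log2 ratio went from 3.14 to 4.39 (chr8:91797950-91798899 in Shh-/-, shift 1.59). The best Shh-/- only peaks, chr8:91805000-91805299 (rank 6487, log2 ratio 4.11) and chr8:91802400-91802949 (rank 7499, log2 ratio 3.98), both in the better 50%, lay 100 and 550 bp from WT peaks, over the antisense gene Irx3os, and the WT-only peak chr8:91806000-91806199 (rank 25711, log2 ratio 3.07) was among the weaker 50%. At Irx5 the peak over the first exon rose from a log2 ratio of 3.90 (chr8:92357950-92358499, rank 10676) to 5.09 (chr8:92357850-92359199, rank 2012), a shift of 1.53. That Shh-/- peak also overlaps WT peaks at 3.61 and 4.25, and the shift would be smaller against the last. The best WT peak of Irx5, chr8:92359050-92359499 in the first intron, stood at 4.25. It overlaps both the Shh-/- peak at 5.09 and another Shh-/- peak at 3.71 (chr8:92359350-92359649). Only the peak at 3.71 was paired with it, with a shift of -0.21, within 0.5 of no change. The best Shh-/- only peak of Irx5, 250 bp at chr8:92361350-92361599 (rank 18806, log2 ratio 3.14), was in the better 50% of its list, and the WT-only peak chr8:92359750-92359949 (rank 24125, log2 ratio 3.12) was also within the better 50%.

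Asb4 had the strongest WT H3K27ac peak of the 7 loci, and it was almost level without Shh. The peak over its second start measured 4450 bp in WT (chr6:5388700-5393149, rank 901, log2 ratio 5.93) and 4150 bp in Shh-/- limb (chr6:5388800-5392949, rank 567, log2 ratio 5.84), a shift of 0.25. The first start rose, from 2200 bp at a log2 ratio of 4.56 (chr6:5382900-5385099, rank 5480) to 2950 bp at 5.53 (chr6:5382950-5385899, rank 1026), a shift of 1.31. Upstream of it the pairs moved both ways, with a WT peak of 2250 bp at a log2 ratio of 4.90 (chr6:5379650-5381899, rank 3714) and Shh-/- peaks at 3.64 and 2.78, shifts of -0.92 and -1.79. Nearer the start a Shh-/- peak of 900 bp (chr6:5381800-5382699, rank 6528, log2 ratio 4.11), which reaches the end of that WT peak, stood above its WT partner at 3.46, a shift of 0.98. The Shh-/- only peak with the best rank, chr6:5388250-5388499 (rank 15177, log2 ratio 3.33, better 50%), lay 200 bp from the WT peak over the second start. The WT-only peak, chr6:5379250-5379449, ranked 26508 at a log2 ratio of 3.04.

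H3K4me2 was kept at all 7 loci and changed less than H3K27ac. Its length went from 300 to 500 bp at Pax1, from 2900 to 3250 bp at Alx1, from 5150 to 6500 bp at Alx4, from 4450 to 6400 bp at Irx3 and from 5850 to 6600 bp at Irx5. It went from 3800 to 2950 bp at Pax9 and from 2700 to 1950 bp at Asb4. Pax1, on the smallest base, was the only locus at least 1.5 times higher, as were 1.98% of 17656 genes, and none was at least 1.5 times lower, as were 8.52%. Together the loci had 25150 bp in WT and 28150 bp in Shh-/- limb, a ratio of 1.12 against 0.9 for the whole lists.

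Most WT H3K4me2 peaks at the loci had some overlap in Shh-/- limb. Of 52 WT peaks, 5 overlapped no Shh-/- peak, 9.62% (4.18 to 20.6%) against 25.7% of all WT H3K4me2 peaks, and 4 of the 5 lay within 500 bp of one. Counted in base pairs the WT-only share was 29.4% against 28.7% of all, and in the better-ranked 50% of both lists 21.1% against 21.0%, so by these measures it was at the background. Of 61 Shh-/- peaks, 22 overlapped no WT peak, 36.1% (25.2 to 48.6%) against 22.5%, and 5 of the 22 ranked in the better 50% of their list. The 39 overlapping pairs had a median shift of 0.35, with 18 raised by more than 0.5 (46.2%) and 6 lowered (15.4%), against 23.3% and 24.7% of all 29805 pairs. In the better-ranked 50% of both lists the median shift was 0.09, with 3 of 13 pairs raised, and without Asb4 it was 0.63. Shifts ran from -1.24 to 1.45, both at Iroquois genes.

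The H3K4me2 peaks over the starts of Pax1, Pax9 and Alx1 had higher log2 ratios in Shh-/- limb, with shifts near the upper end of the genome-wide range. At Pax1 the promoter peak rose from a log2 ratio of 2.29 (chr2:147365150-147365449, rank 32184) to 3.25 (chr2:147365000-147365349, rank 16885), a shift of 1.03. At Pax9 it rose from 2.95 (chr12:56695900-56697399, rank 20214) to 3.97 (chr12:56695600-56696949, rank 5650), a shift of 1.09, while the best H3K4me2 peak of the locus, in the intron behind, stood at 4.10 and 4.18. At Alx1 the peak over the gene's start rose from 3.43 (chr10:103026500-103028599, rank 12772) to 4.57 (chr10:103026550-103028849, rank 1161), a shift of 1.21. The middle range of all H3K4me2 pairs, taken as for the acetylation pairs above, ran from -1.24 to 1.13. The shifts of 1.03 and 1.09 lay inside it, and that of 1.21 lay just above it. The study, with peaks merged between genotypes, reported nearly all H3K4me2 peaks as unchanged. Upstream of Alx4, 3 Shh-/- only H3K4me2 peaks of 100 to 200 bp lay between 23.3 and 25.7 kb from the start, where WT limb had none.

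The Iroquois genes moved both ways in H3K4me2. The strongest H3K4me2 peak of Irx3 covered its start and went from a log2 ratio of 4.59 (chr8:91800750-91802349, rank 939) to 3.71 (chr8:91800600-91802199, rank 9215), a shift of -0.82, and a peak over Irx3os went from 4.25 to 2.94, a shift of -1.24. At Irx5 the intron peak chr8:92363000-92363699 rose from 2.69 to 4.08 (shift 1.45), and the best WT peak, chr8:92360000-92360849, went from 4.00 to 3.34 (shift -0.59). At Alx4 the shifts ran from -1.13 to 0.75, and the best Shh-/- peak, chr2:93646050-93648399, stood at 3.75 against 3.38. At Asb4 the shifts lay between -0.50 and 0.35, with the WT promoter peak chr6:5390350-5391299 at 3.53 and the Shh-/- peak in it at 2.96.

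The H3K4me2 peaks found in 1 genotype only were mostly weak. The best-ranked Shh-/- only peak was in the better 50% of its list at Irx5 alone (chr8:92364050-92364249, rank 12099, log2 ratio 3.53, in an intron). At the other loci these peaks ranked between 21369, at Pax9 (chr12:56700550-56700749, log2 ratio 3.01), and 34196, at Alx1 (chr10:103000850-103000949, log2 ratio 2.43). Of the WT-only peaks, the one 17.2 kb upstream of Alx4 (chr2:93625000-93625199, rank 15455, log2 ratio 3.26) was in the better 50%, and it lies inside the best Shh-/- only H3K27ac peak of that gene. Those of Pax9 (rank 25841), Irx3 (rank 29676) and Irx5 (rank 30190) were weaker, and Pax1, Alx1 and Asb4 had none.

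By presence of a peak, promoter marks did not differ between the genotypes at any of the 7 genes. Within 1 kb of an annotated start, H3K27ac peaks were present in both genotypes at 5 of 7 genes (Alx1, Alx4, Irx3, Irx5, Asb4), as at 38.4% of all protein-coding genes, and in neither at Pax1 and Pax9. H3K4me2 was present in both at all 7, as at 62.3% of all genes. H3K27me3 was profiled here for Shh-/- limb only, and lay at 5 of 7 promoters (Pax1, Pax9, Alx1, Irx3, Irx5), as at 12.6% of all genes. All 3 marks were present in Shh-/- limb at 3 promoters, Alx1, Irx3 and Irx5, as at 1.57% of all genes, and H3K4me2 with H3K27me3 but no H3K27ac at Pax1 and Pax9. The nearest H3K27me3 peak to a start of Alx4 began 1062 bp away, so the count at Alx4 depends on the 1 kb limit.

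H3K27me3 divided the genes. In Shh-/- limb it covered 15700 bp at Pax1, 14100 bp at Pax9, 8350 bp at Irx5, 5650 bp at Irx3 and 5150 bp at Alx1, but 1150 bp at Alx4 and 100 bp, 1 peak, at Asb4. The widest peaks were 8250 bp at Pax9 (chr12:56687000-56695249, rank 323, log2 ratio 4.69) and 4300 bp at Pax1 (chr2:147360400-147364699, rank 1198, log2 ratio 3.97), with a second Pax1 peak of 3950 bp over the start (rank 808, log2 ratio 4.18). The widest at the others were 3050 bp at Irx5 (rank 3350), 1900 bp at Alx1 (rank 855), 1600 bp at Irx3 (rank 1874) and 650 bp at Alx4 (rank 4489). Of the 55 peaks, 34 had an FDR under 0.05, as did 47.2% of the whole list, and at Alx4 this was 1 of 4 and at Asb4 0 of 1.

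Acetylation and H3K27me3 met at the Iroquois genes and Alx1. Of 61 Shh-/- H3K27ac peaks at the loci, 19 overlapped an H3K27me3 peak of the same limb, 31.1% against 0.701% of all. By gene this was 7 of 7 at Irx3, 7 of 8 at Irx5 and 2 of 2 at Alx1, but 2 of 24 at Alx4, 1 of 7 at Pax1 and 0 at Pax9 and Asb4. The overlap came to 7000 of 42900 bp. For H3K4me2 it was 37 of 61 peaks, 60.7% against 11.4% of all, from 10 of 11 at Irx3, 12 of 14 at Irx5, 4 of 5 at Alx1, 6 of 8 at Pax9 and 2 of 2 at Pax1 to 3 of 13 at Alx4 and 0 of 8 at Asb4. In buds of mixed cells, overlapping peaks can come from different cells or from the same ones, and these cannot be told apart here. H3K27me3 peaks of any FDR, up to 0.255, entered the overlap counts.

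**Figure D5:**
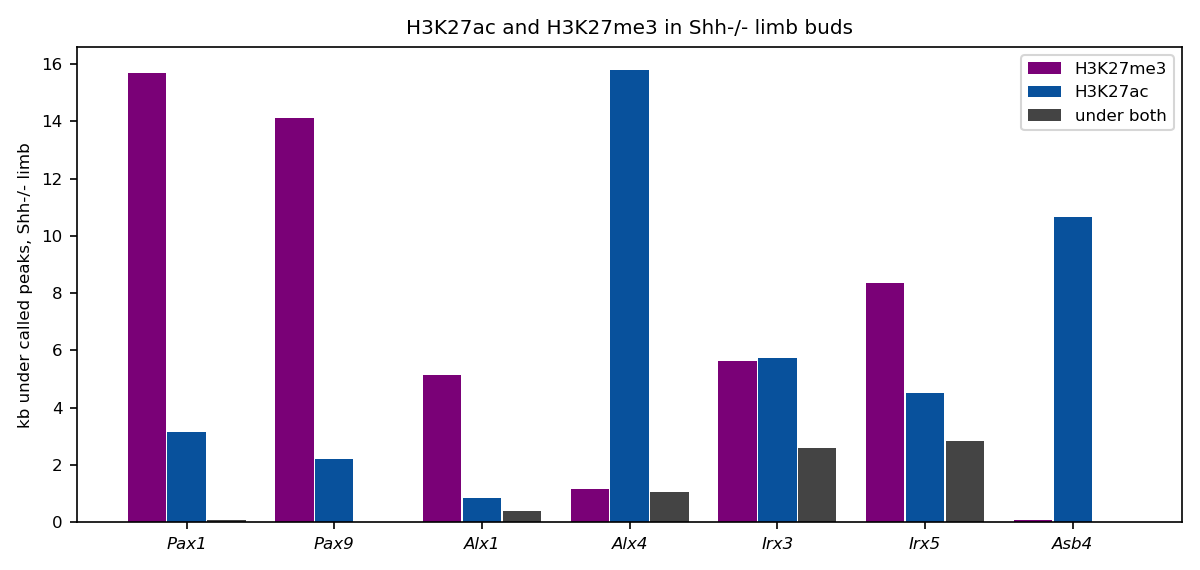
Length in kb under H3K27me3 peaks, under H3K27ac peaks and under both in Shh-/- limb for each of the 7 windows, 1 value per list and no replicate error. H3K27me3 is longer than H3K27ac at Pax1, Pax9, Alx1 and Irx5, H3K27ac is longer at Alx4 and Asb4, and the 2 are nearly equal at Irx3.

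In control NIH3T3 cells 4 of the 7 promoters had H3K27ac (Pax9, Irx3, Irx5, Asb4), 57.1% against 52.2% of all protein-coding genes, and 3 did with purmorphamine (Pax9, Irx3, Irx5). Pax1, Alx1 and Alx4 had no NIH3T3 H3K27ac peak in either list, and of the 61 Shh-/- limb H3K27ac peaks only 7 overlapped a control NIH3T3 peak (5 at Irx5, 1 at Irx3, 1 at Asb4), 11.5% against 40.3% of all Shh-/- limb peaks. The Pax9 promoter, unacetylated in limb, had a control peak of 1200 bp (chr12:56695750-56696949, rank 6405, log2 ratio 4.27) and a purmorphamine peak of 1050 bp (rank 18404, log2 ratio 3.54). Irx5 had 5700 bp of H3K27ac in control and 5100 bp with purmorphamine, and Irx3 had 650 and 1450 bp, a ratio of 2.23 that rests on 1 control and 2 purmorphamine peaks. The best Irx5 peaks were chr8:92357800-92358449 in control (rank 3256, log2 ratio 4.54) and chr8:92355000-92356249 over Crnde with purmorphamine (rank 1703, log2 ratio 4.87). The best Irx3 peaks covered its promoter in both lists, at rank 9685 and log2 ratio 3.96 in control and rank 16463 and log2 ratio 3.83 with purmorphamine. The study's methods name more than 1 H3K27ac antibody for conventional ChIP, so limb and NIH3T3 ChIPs may differ in antibody. Limb and fibroblasts are set side by side for presence of peaks only.

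With purmorphamine the difference in base pairs was largest at Asb4 among the 7 loci. Its window had 28350 bp of H3K27ac in 41 control peaks and 9600 bp in 16 purmorphamine peaks, a ratio of 0.339, while the whole lists had a ratio of 0.938. Of the 41 control peaks 33 overlapped no purmorphamine peak and none of the 16 purmorphamine peaks was without a control partner. The widest control peak was 6950 bp (chr6:5439500-5446449, rank 2409, log2 ratio 4.76), and the best purmorphamine peak inside it was 3200 bp (chr6:5440950-5444149, rank 9344, log2 ratio 4.15). In the Asb4 body the best control peak, chr6:5420650-5422649 (rank 6167, log2 ratio 4.19), held a purmorphamine peak at rank 19358 and log2 ratio 3.51. The best control-only peak, chr6:5423750-5423949 (rank 32439, log2 ratio 2.98), was in the better 50% of its list. Of the 41 control peaks 37 began at least 25 kb after the first base of Asb4, a stretch where neither limb list had an H3K27ac peak, whereas the limb peaks lay around the 2 starts.

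Over all 7 loci 35 of 50 control peaks were control-only, 70.0% (56.2 to 80.9%) against 41.1% of all, and 1 of 25 purmorphamine peaks was purmorphamine-only, 4.00% (0.710 to 19.5%) against 36.5%. The control-only share rests on Asb4, and without it was 22.2%, 2 of 9 peaks. Outside Asb4 the unshared NIH3T3 peaks were 1 control-only peak each at Pax9 (rank 59328) and Irx5 (rank 49260) and the purmorphamine-only peak at Irx3 (rank 55066), all 150 to 250 bp wide.

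Posterior targets of Hedgehog signalling in the same buds went the opposite way. At Ptch1, Gli1, Hand2, Grem1 and Hoxd13 the H3K27ac length went from 71550 bp in WT to 37800 bp in Shh-/- limb, 55 of 84 WT peaks (65.5%) were WT-only, and 3 of 43 Shh-/- peaks (6.98%) were Shh-/- only. Promoters of all 5 had H3K27ac in WT and 2 of 5 in Shh-/- limb (Ptch1 and Hand2). A comparison group of 8 family and anterior relatives, Irx1, Irx2, Irx4, Irx6 and Gli3 among them, was nearly level in total. Its H3K27ac length was 33300 bp in WT and 33450 bp in Shh-/- limb. Of its WT peaks 38.2% were WT-only (48.5% of all), and of its Shh-/- peaks 34.0% were Shh-/- only (38.4% of all). More H3K27ac without Shh was thus not shared by this group as a whole. None of these groups was tested against another or against the 7 loci, and each mark has 1 list per genotype.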

How the data were processed

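H3K27ac, H3K4me2 and H3K27me3 ChIP-seq peak lists of E10.5 forelimb buds and NIH3T3 cells were used as deposited, 7 lists, each from 2 replicates of a condition with its input. Per the labels, reads were aligned to mm10 with Bowtie2 2.2.5, and the study's methods name CisGenome as the peak caller. The authors called peaks on both replicates together, so replicate values are not in the lists and were not analysed here. The deposited columns are an FDR (q-value) per peak, a score on which peaks are ranked, the largest log2 ratio of ChIP to input, a −log10 Poisson p-value, and the peak length in bp. Sequencing depth cannot be read from the lists, and a peak that is missing may have failed a threshold that differs between lists (the highest FDR was 0.0473 for WT and 0.0673 for Shh-/- H3K27ac, and 0.255 for H3K27me3).

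Peaks on unplaced scaffolds (0 to 34 per list) were dropped, and coordinates were taken as 1-based. Overlap was at least 1 bp. The 7 genes and the comparison lists were chosen with earlier results of these data known. Every member was named, with its promoter peaks, the best-ranked peak and best-ranked unshared peak of each list, and the widest H3K27me3 peak. Gene positions came from the GENCODE annotation of GRCm38 and sequences from RefSeq. Shares were given with 95% Wilson intervals. Overlaps were computed with Python 3.11.15 (numpy 2.4.6, pandas 2.3.3, figures with matplotlib 3.10.9), tested on simulated peaks and checked for equality with bedtools 2.31.1. WT H3K27me3 was not analysed here, and some genes of the comparison lists are not reported here.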

Additional observations from a re-analysis of the deposited data

How the results depend on the processing

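Values under alternatives of overlap, rank, list size, FDR, flank, merging and unit were set against a limit around the main value. Of the planned values 55 stayed within the limit and 17 moved beyond it, as did 38 and 4 of those chosen after seeing the data. For shares the limit was the Wilson interval of the main value. For median shifts, promoter counts and length ratios it was a fixed size, so for these the tally is not measured against uncertainty. For example, the H3K27ac length ratio of 2 without Asb4 counted as within the limit of the main 1.62. No median shift changed sign. The WT-only share of H3K27ac stayed below that of all WT peaks and the Shh-/- only share above that of all Shh-/- peaks in 11 of 11 alternatives each, as did the Shh-/- only share of H3K4me2, the WT-only share of H3K4me2 stayed below in 9, and the control-only share stayed above in 10, all except without Asb4. With at least 50% of a peak required to overlap, the WT-only share of H3K4me2 was 28.8% (35.3% of all peaks), the control-only share in NIH3T3 82.0% (51.2%) and the median H3K27ac shift 0.13. When peaks at most 500 bp apart were treated as overlapping, the shares were 4.44% for WT H3K27ac (29.5% of all peaks), 34.4% for Shh-/- H3K27ac (20.2%), 1.92% for WT H3K4me2 (11.8%) and 16.4% for Shh-/- H3K4me2 (10.2%). In the better-ranked 50% of every list they were 21.1% for WT H3K4me2, against 21.0% of all peaks, 0% for purmorphamine (26.8%) and 50.0% for control (30.4%), and the median H3K4me2 shift was 0.09. With peaks within 1 kb merged, 33.3% of Shh-/- H3K27ac peaks (31.5% of all), 0% of purmorphamine and 41.7% of control peaks (29.0%) were unshared. By base pairs, 29.4% of WT H3K4me2 (28.7% of all) and 55.5% of control length (34.0%) was unshared. A flank of 20 kb gave a median H3K27ac shift of 0.43.

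Chosen after seeing the data, leaving out the Asb4 locus gave a control-only share of 22.2% (41.1% of all) and median shifts of 0.74 for H3K27ac and 0.63 for H3K4me2, and taking the highest WT ratio of several overlapped peaks gave a median H3K4me2 shift of 0.24. The cause of these moves was not tested. The ratio of H3K27ac length ran from 1.41 to 2 over all its alternatives. No paired analysis was possible because each list pools both replicates, and for the same reason no replicate could be left out in turn.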

Other observations

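Other Iroquois genes differed from Irx3 and Irx5. Irx1, Irx2 and Irx4, the cluster on the other Iroquois locus, had no limb H3K27ac peak in either genotype, with 11050, 9800 and 13300 bp of H3K27me3 in Shh-/- limb, while Irx6, the neighbour of Irx3 and Irx5, had 1 WT peak of 100 bp. Gli3, the main Hedgehog repressor of the limb, had 21200 bp of H3K27ac in WT and 19450 bp in Shh-/- limb, with 1 H3K27me3 peak of 100 bp.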
